A study of Mus musculus with 10 samples.

Results

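Topologically associating domains (TADs) of 90 kb and shorter on the 19 autosomes were examined in mouse embryonic stem cells profiled by exo-Hi-C, with 10 libraries. The members were chosen by a measured value, the distance between the 2 ends that the deposited lists give for each TAD. They numbered 10470 of 37959 autosomal TADs, or 27.6%, and the other 27489 TADs were longer. The lists place TAD ends in bins of 10 kb and hold none under 60 kb, so the members are the TADs of 60, 70, 80 and 90 kb. Length decided membership, so the lengths of the members are described below without a test. The share of short TADs also rests on that limit. It was tested between libraries and between chromosomes, and those p-values concern these comparisons only.

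A TAD is a stretch of chromosome whose sequences contact each other more often than they contact sequences outside it. In mammalian cells many TAD ends carry CTCF, the DNA-binding protein at which the loop-extruding cohesin complex halts, and active genes also lie at such ends. Domains nest, so that a smaller domain, often called a sub-TAD, can lie within a longer one, and enhancers mostly contact promoters of the same domain. How small a domain can be found in Hi-C depends on the number of contacts sequenced and on the bin size.

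The cells were the line ES-E14TG2a, grown without feeder cells in medium with LIF, the GSK3b inhibitor CHIR99021 and the MEK inhibitor PD0325901, in all genotypes alike. Each of the 5 genotypes had 2 libraries: the unedited WT, the single knockouts E2-KO, E1-KO and E3-KO, and the double knockout E1&E3-dKO. Where E1, E2 and E3 lie, whether a knockout was 1 clone or several, and which library received which exonuclease mixture (LRC or LIC) is not given in the sources used here. Nothing states that replicates were separate cultures, so the spread that the p-values measure is between these libraries only and may be technical. A title starting with w326, whose meaning is not given, is carried by both libraries of E2-KO, by replicate 2 of E3-KO and by replicate 1 of WT. Contact maps hold no expression values, so the cell type was not checked against markers. Positions are on mm9, rounded to the 10 kb bins of the lists. No gene was assigned and no sequence read, since the tables used here are of another build.

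The files give no number of reads, so depth is given as a relative value derived from the interaction lists, the contacts expected for an average pair of 10 kb bins 1 Mb apart. E1-KO replicate 1 was the deepest library at 0.249 contacts, followed by WT replicate 2 at 0.201, WT replicate 1 at 0.189 and E3-KO replicate 1 at 0.170. The value of WT replicate 2, whose list repeats each pair, may be too high, and so may its rank. E1-KO replicate 2 had 0.112 contacts, E1&E3-dKO replicate 1 had 0.108, E2-KO replicate 2 had 0.0823, E3-KO replicate 2 had 0.0715 and E1&E3-dKO replicate 2 had 0.0658. E2-KO replicate 1 stood apart from the rest at 0.0145 contacts. The same library held 7431 autosomal TADs, against 2543 to 4425 in the other 9.

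Short TADs made up the smallest shares in 1 library each of E1-KO and WT and the largest in an E2-KO library, and libraries of 1 genotype lay far apart. WT replicate 1 held 263 short TADs, 9.86% of its autosomal TADs, and WT replicate 2 held 498, or 15.3%. E1-KO replicate 1 held 228 (8.97%) and replicate 2 held 707 (21.4%), so E1-KO lay on both sides of WT. E2-KO replicate 1 held 3851 (51.8%) and replicate 2 held 1057 (27.6%), both above WT. E3-KO replicate 1 held 347 (11.3%), between the WT libraries, and replicate 2 held 1388 (31.4%). E1&E3-dKO replicate 1 held 538 (17.8%) and replicate 2 held 1593 (36%), both above WT. Counting error was small beside these gaps: the Wilson 95% interval ran from 8.79% to 11.1% in WT replicate 1 and from 50.7% to 53.0% in E2-KO replicate 1.

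The mean share was 12.6% ± 3.87 for WT, 15.2% ± 8.82 for E1-KO, 39.7% ± 17.2 for E2-KO, 21.4% ± 14.2 for E3-KO and 26.9% ± 12.9 for E1&E3-dKO (SD, n = 2 each). Over the 945 ways to pair the 10 libraries, an exact permutation gave p = 0.329 for a smaller spread within genotypes (one-sided, 0.535 after Benjamini-Hochberg adjustment over 13 tests). The 8 knockout libraries averaged 13.2 percentage points above WT, with an exact two-sided permutation p of 0.244 over 45 choices (adjusted 0.454). E2-KO lay 27.1 points above WT, and 15.0 points above it without E2-KO replicate 1. E1&E3-dKO lay 14.3 points above WT, E3-KO 8.77 points and E1-KO 2.61 points. E3-KO lay 1.28 points below WT without its replicate 2, and E1-KO 3.63 points below WT without its replicate 2. A comparison of 2 libraries against 2 cannot reach an exact p below 0.333. Among the libraries titled w326, E2-KO lay 29.8 points above the WT library and E3-KO replicate 2 lay 21.6 points above it. Among the others, E1&E3-dKO lay 11.6 points above WT, while E1-KO and E3-KO replicate 1 lay below it, at -0.126 and -4.01 points.

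**Figure D1:**
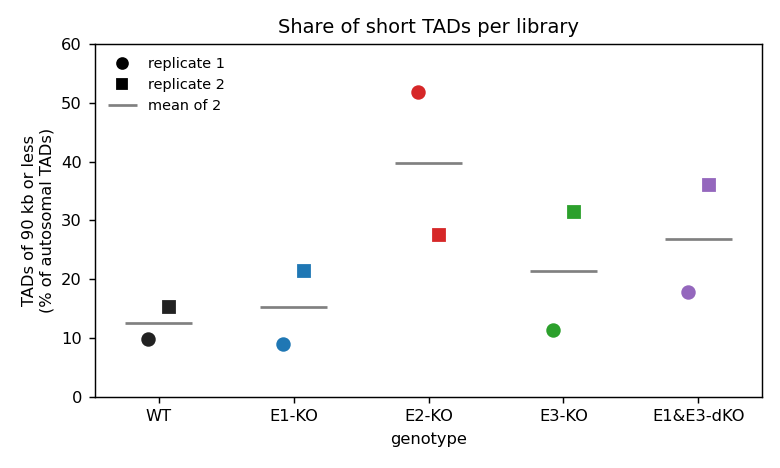
Percent of autosomal TADs of 90 kb or less on the vertical axis, by genotype, with 1 point per library and a line at each genotype's mean. E2-KO replicate 1 lies at 51.8%, apart from the other libraries, which run from 8.97% to 36%, and replicate 1 of E1-KO lies below both WT libraries.

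The share of short TADs was higher in libraries that held more TADs. Over the 10 libraries, Pearson's r between the share and the log2 number of autosomal TADs was 0.979 (permutation p = 3e-05, adjusted 0.000173, two-sided), and Spearman's rho was 0.964 (permutation p = 4e-05, adjusted 0.000173). Without the 2 libraries farthest from the median number, E2-KO replicate 1 and E1&E3-dKO replicate 2, r was 0.949. The number of TADs contains the short TADs, so the measures are not independent. A relation between them was in part fixed in advance, and these p-values do not support a relation beyond that part. When the 2543 best-scored TADs were taken from each library, short TADs numbered 238 and 315 for WT, 228 and 436 for E1-KO, 1469 and 543 for E2-KO, 229 and 626 for E3-KO, and 380 and 724 for E1&E3-dKO. The same libraries were thus at the top and bottom with equal list lengths, with shares from 8.97% in E1-KO replicate 1 to 57.8% in E2-KO replicate 1.

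The share was higher where the recovered depth was lower. Pearson's r with log2 depth was -0.969 (permutation p = 2e-05, adjusted 0.000173, two-sided, 10 libraries), and Spearman's rho was -0.952 (permutation p = 8e-05, adjusted 0.00026). It was -0.944 without the 2 libraries farthest from the median depth, E2-KO replicate 1 and E1-KO replicate 1, and -0.922 within the 6 libraries not titled w326. The 4 libraries titled w326 are too few for a value. The shallower library of a genotype had the higher share in 4 of 5 genotypes, the exception being WT, where the 2 depths were close. That exception rests on the depth of WT replicate 2, which may be too high. Depth also differed between genotypes, with both WT libraries among the 3 deepest by these values, a rank under the same limit for WT replicate 2. After a line on log2 depth was removed from the shares, E1-KO lay 0.110 points above WT, E2-KO at -0.832 points, E3-KO at -0.418 points and E1&E3-dKO 0.785 points above it. On these residuals the exact permutation over pairings gave p = 0.999 for genotype, and WT differed from the knockouts by -0.0885 points (exact permutation p = 0.956). The libraries lay from -4.25 points (E1&E3-dKO replicate 1) to 5.96 points (E1&E3-dKO replicate 2) off the line. The depth was not varied within a library, so its part in the share was not tested.

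**Figure D2:**
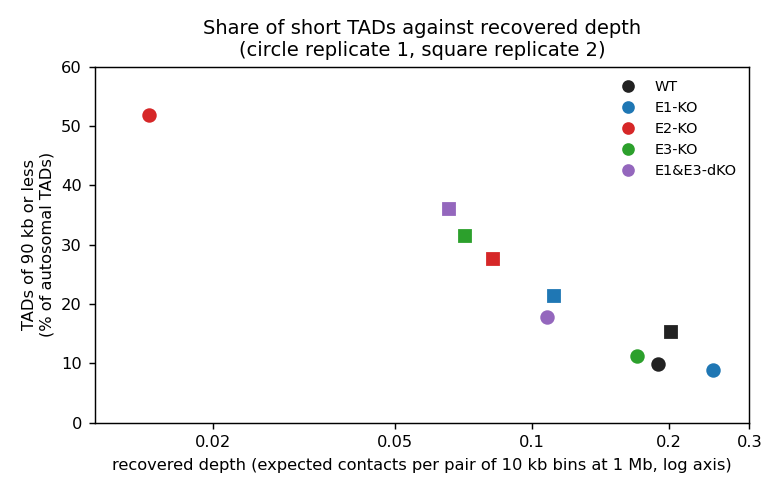
Percent of autosomal TADs of 90 kb or less against recovered depth (expected contacts for 2 bins of 10 kb that lie 1 Mb apart, log axis), 1 point per library and 1 colour per genotype. The share falls from 51.8% at 0.0145 contacts to 8.97% at 0.249 contacts, and libraries of different genotypes lie along 1 line.

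The shortest class made up more of the members in the libraries that held the most short TADs. TADs of 60 kb, the shortest listed, numbered 63 and 119 for WT and 43 and 185 for E1-KO. They numbered 1425 and 361 for E2-KO, 69 and 487 for E3-KO, and 153 and 561 for E1&E3-dKO. They made up 24.0% and 23.9% of the short TADs for WT, 18.9% and 26.2% for E1-KO, and 37% and 34.2% for E2-KO. For E3-KO they made up 19.9% and 35.1%, and for E1&E3-dKO 28.4% and 35.2%. The 4 libraries under 24% at 60 kb, both of WT and the first of E1-KO and of E3-KO, were the 4 deepest by recovered depth. For WT replicate 2 that depth may be too high. The median length of all autosomal TADs ran from 270 kb in E1-KO replicate 1 to 90 kb in E2-KO replicate 1. Short TADs covered 19.8 and 37.2 Mb in WT and 17.3 Mb in E1-KO replicate 1, against 275 Mb in E2-KO replicate 1 and 115 Mb in E1&E3-dKO replicate 2. No short TAD lay within another TAD of its own library, and between 5.94% and 14.7% of the short TADs of a library adjoined another TAD.

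The limit of 90 kb cut through a range of lengths that all libraries held. TADs just inside it, at 90 kb, numbered 66 and 108 in WT, and those just outside, at 100 kb, numbered 70 and 97. In E2-KO replicate 1 there were 619 at 90 kb and 515 at 100 kb, and in E1&E3-dKO replicate 2 there were 292 and 210. E1-KO had 56 and 147 at 90 kb against 74 and 130 at 100 kb, and E3-KO had 100 and 240 against 104 and 231. The median scores of the 2 classes were 1.64 and 1.67 in WT replicate 1 and 2.04 and 2.03 in E2-KO replicate 1.

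**Figure D3:**
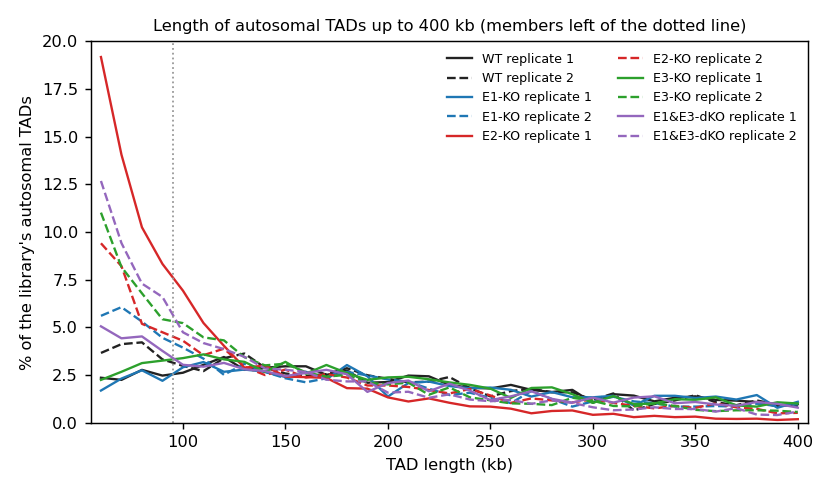
Percent of each library's autosomal TADs on the vertical axis against length in kb, 1 line per library, with the limit of 90 kb marked. At 60 kb the line of E2-KO replicate 1 starts highest, at 19.18%, while that of E1-KO replicate 1 starts lowest, at 1.691%.

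The score is a number that the authors' lists give each TAD, never under 1.5, on a scale not explained in the sources used here. Short TADs scored lower than longer TADs of the same library in 9 of 10 libraries. In WT the median score of short TADs was 1.59 and 1.61, against 1.68 and 1.71 for longer TADs. The exception was E2-KO replicate 1, with a median of 2.06 for short and 2.00 for longer TADs. In that library 58.0% of the short TADs scored 2 or more, against 2.41% to 6.34% in the other 9. Of the 125 short TADs with a score of 3 or more, 115 were in E2-KO replicate 1, 4 in E1&E3-dKO replicate 2, 3 in E2-KO replicate 2 and 3 in E3-KO replicate 2. The gap between short and longer TADs was not found to separate the genotypes (exact permutation over pairings, one-sided p = 0.223, adjusted 0.454). The 5 highest scores of short TADs were all in E2-KO replicate 1. They lay on chromosome 10 at 117.64 to 117.73 Mb (16.3), chromosome 7 at 17.25 to 17.32 Mb (9.19), chromosome 11 at 121.76 to 121.83 Mb (8.14), chromosome 1 at 89.98 to 90.07 Mb (7.31) and chromosome 12 at 115.32 to 115.39 Mb (7.17). Of these, the first was held by all 10 libraries, the fifth by 7, the second and the fourth (90 kb in this library) by 3 each, and the chromosome 11 TAD by E2-KO replicate 1 alone.

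By chromosome, 4 and 14 had the highest mean shares of short TADs, and both lay above the mean of the autosomes in 10 of 10 libraries. On chromosome 4 the mean share was 28.3% ± 14.1 (SD over 10 libraries, which includes the spread of their shares), 5.14 points above the mean of the autosomes. There it was 15.5% and 20.8% for WT, 11.2% and 26.2% for E1-KO, 54.8% and 30.3% for E2-KO, 17.3% and 45.3% for E3-KO, and 22.6% and 39.0% for E1&E3-dKO. On chromosome 14 the mean was 28.0% ± 15.2, 4.84 points above, and WT had 11.7% and 22.3%. Chromosome 6 was lowest, at 19.4% ± 13.4, with 8.81% and 10.99% in WT, and lay above the library's mean in 1 of 10 libraries. Chromosome 10, at 19.8% ± 14.9, was also above it in 1 of 10. Against the mean of the autosomes, chromosome 6 lay at -3.745 points, chromosome 10 at -3.325, chromosome 19 at -2.826 and chromosome 11 at -1.716. A low share was thus not particular to chromosomes 11 and 19. No test was made over the 19 chromosomes.

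Chromosomes 11 and 19, which are rich in genes, held a lower share than the other autosomes in 9 of 10 libraries. The mean difference was -2.20 points, with an exact two-sided sign-flip permutation p of 0.0547 (adjusted 0.142), which missed the threshold. E1-KO replicate 1 was the exception, at 4.93 points above, and without it the difference was -3 points (exact permutation p = 0.00391). The 9 libraries left were all below, so this p is the smallest that sign flips of 9 libraries can give. It was fixed by which library was left out and adds nothing to the test over 10 libraries. Among TADs of 80 kb or less, over all 10 libraries, the difference was -2.89 points (exact permutation p = 0.00586). Among TADs that scored 2 or more it turned to 7.26 points above (exact permutation p = 0.00586). Outside E2-KO replicate 1 only 2.41% to 6.34% of a library's short TADs scored 2 or more, so that reversal rests on few TADs.

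How many short TADs were found again in another library varied with the library, and it was fewer than of longer TADs. A TAD was taken as held by 2 libraries where each covered at least 80% of the other. The match of a short TAD could itself be over 90 kb. By that rule the short TADs in no other library made up 28.9% and 48.2% in WT and 16.7% and 59.3% in E1-KO. They made up 89.6% and 66.9% for E2-KO, 35.2% and 72.6% for E3-KO, and 50.9% and 74.8% for E1&E3-dKO. Most short TADs were thus found again in 4 libraries, those of WT and the first of E1-KO and of E3-KO, and most were not in the other 6. For longer TADs the percent in no other library was lower in each, from 4.08% in WT replicate 1 to 63.8% in E2-KO replicate 1. The members and the longer TADs formed 18614 distinct TADs, of which 8528 were short. Of the distinct short TADs 7528 (88.3%) were in 1 library only, against 5533 (54.9%) of the 10086 longer ones. In 5 or more libraries there were 106 short TADs (1.24%) and 2219 longer ones (22.0%). E2-KO replicate 1 alone held 3452 of the short TADs found in 1 library, or 45.9%, and libraries with long lists weigh most in these pooled values. Formed without that library, 4321 of 5065 distinct short TADs (85.3%) were in 1 library, against 45.5% of longer ones, and 1.94% against 27.0% were in 5 or more. Overlap by percent allows longer TADs more distance between ends. With both ends within 20 kb instead, the mean percent found in another library was still lower for short than for longer TADs in 10 of 10 libraries, at 32.7% against 49.6% in WT replicate 1 and 3.33% against 13.1% in E2-KO replicate 1.

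The sharing of short TADs within genotypes was not found to exceed that between them. In WT replicate 1, 28.1% of the short TADs matched a TAD of any length in WT replicate 2, and 26.4% on average in the other genotypes. For WT replicate 2 these values were 13.9% and 15.2%. E1-KO had 32.0% and 29.3% for replicate 1, and 11.6% and 12.4% for replicate 2. E2-KO had 2.57% and 1.92% for replicate 1, and 8.99% and 8.15% for replicate 2. E3-KO had 23.9% and 21.6%, then 5.69% and 6.41%. E1&E3-dKO had 15.6% and 14.2%, then 5.52% and 5.92%. The partner's value was the higher in replicate 1 of every genotype and in replicate 2 of E2-KO. Replicate 2 held more short TADs than replicate 1 in every genotype but E2-KO, and these percents do not allow for list length. The Jaccard index and the overlap coefficient below count only matches of short with short TADs, unlike these percents. The Jaccard index, the shared short TADs over all short TADs of a pair of libraries, was 4.86% ± 2.62 within genotypes (SD, 5 pairs) and 4.79% ± 3.17 between them (SD, 40 pairs). The difference of 0.0713 points had an exact one-sided permutation p of 0.444 over pairings (adjusted 0.574). The pair with the highest index was E1-KO replicate 1 with E3-KO replicate 1, at 13.9%, while the WT libraries had 7.79%. The index also moves with list length, and these are among the shorter lists. The overlap coefficient, the shared short TADs over the shorter list, was 17.8% ± 7.70 within and 16.0% ± 7.04 between genotypes, 1.82 points higher within (exact one-sided permutation p = 0.106). Without E2-KO replicate 1 the Jaccard difference was -0.0367 points (exact permutation p = 0.495).

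**Figure D4:**
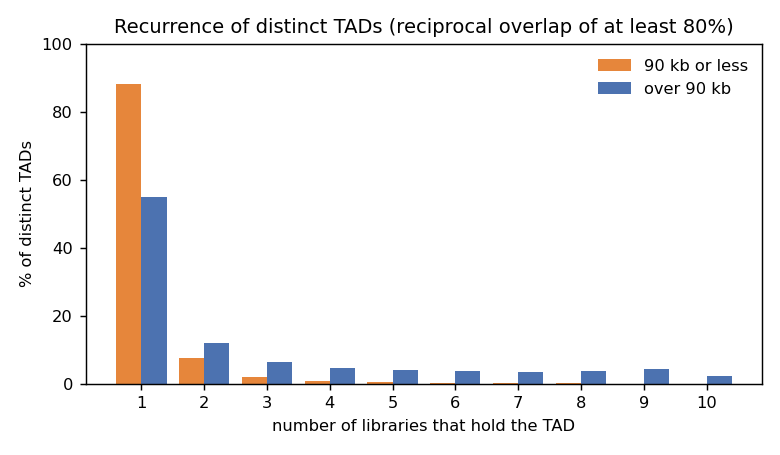
Percent of distinct TADs on the vertical axis against the number of libraries that hold them, for TADs of 90 kb or less and for longer TADs. Of short TADs 88.3% are in 1 library, against 54.9% of longer ones, and 1.24% of short against 22.0% of longer TADs are in 5 or more.

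Short TADs that recurred scored higher than those that did not. The median score of short TADs found in 5 or more other libraries was above that of short TADs found in no other in 10 of 10 libraries. It was 1.68 against 1.55 in WT replicate 1, 1.77 against 1.59 in WT replicate 2, and 2.24 against 2.06 in E2-KO replicate 1. Length among the members was not held equal here. Median scores at 60 and 90 kb were 1.55 and 1.635 in WT replicate 1 and 1.576 and 1.666 in WT replicate 2. They were 2.049 and 2.042 in E2-KO replicate 1, and the part of length was not tested.

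All 10 libraries held 4 distinct short TADs. On chromosome 11 at 48.59 to 48.68 Mb the TAD was 90 kb or less in every library. It scored 2.1 and 2.39 in WT, while E1-KO had 2.59 and 2.82 and E2-KO 2.88 and 2.70. The scores of E3-KO were 2.30 and 2.78 and those of E1&E3-dKO 2.36 and 3.66. WT replicate 1 had the lowest score and E1&E3-dKO replicate 2 the highest, and with 2 libraries per genotype no test was made. On chromosome 10 at 117.64 to 117.73 Mb the TAD was 90 kb in 3 libraries and 100 kb in the rest. It scored 2.33 and 2.81 for WT, 1.92 and 2.42 for E1-KO, and 16.3 and 3.81 for E2-KO. The scores of E3-KO were 2.80 and 4.44 and those of E1&E3-dKO 2.80 and 3.73. Only the E2-KO replicate 1 score stood apart from the range of the other 9. On chromosome 16 at 17.20 to 17.28 Mb the mean score was 2.08 ± 0.214 (SD, n = 10), with 90 kb or less in 8 libraries. On chromosome 4 at 133.95 to 134.04 Mb it was 2.19 ± 0.571 (SD, n = 10), with 90 kb or less in 5.

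A further 5 distinct short TADs were held by 9 libraries. They lay on chromosome 4 at 128.88 to 128.96 Mb, on chromosome 9 at 120.41 to 120.49 Mb and on chromosome 10 at 41.47 to 41.53 Mb, each not listed in E2-KO replicate 1. The others lay on chromosome 11 at 51.41 to 51.50 Mb and chromosome 17 at 25.85 to 25.94 Mb, each not listed in E3-KO replicate 2. The first 3 were 90 kb or less in all 9 libraries, and the other 2 in 4 of 9, with 100 kb in both WT libraries. The chromosome 10 TAD, of 60 kb, had a mean score of 1.69 ± 0.125 (SD, n = 9). Of those in 8 libraries, the TAD on chromosome 8 at 71.93 to 72.01 Mb had the highest mean score, 2.69 ± 0.938 (SD, n = 8).

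Short TADs lay mostly in the gaps between the longer TADs of WT. The longer TADs numbered 2404 and 2751 in the WT libraries and covered 40.02% and 44.1% of the autosomes. Knockout libraries were set against both WT libraries and averaged, and each WT library against the other. In WT 71.9% and 76.9% of the short TADs lay in gaps, 23.2% and 20.7% lay inside a longer TAD, and the rest crossed an end. The percent inside was 21.1% and 20.2% for E1-KO, 34.6% and 22.0% for E2-KO, 21.6% and 28.1% for E3-KO, and 22.7% and 26.3% for E1&E3-dKO. E2-KO replicate 1 had the highest percent inside, each knockout but E1-KO had 1 library within the WT range and 1 above it, and E1-KO had 1 within it and 1 below it. All windows of the same lengths along the chromosomes gave 36.6% and 33.5% inside for the WT libraries. The percent inside was below that of the windows in 10 of 10 libraries, by 13.4 points in WT replicate 1, by 7.31 points in E3-KO replicate 2 and by 0.82 points in E2-KO replicate 1. TADs of 1 list do not overlap, so a short TAD seen in both WT lists is barred from the longer TADs of either.

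The percent inside a longer WT TAD was not found to separate the 4 knockout genotypes (exact permutation over 105 pairings of the 8 knockout libraries, one-sided p = 0.486, adjusted 0.574; without E2-KO replicate 1, p = 0.495). Group means were 21.9% ± 1.78 for WT, 20.6% ± 0.584 for E1-KO, 28.3% ± 8.92 for E2-KO, 24.8% ± 4.56 for E3-KO and 24.5% ± 2.56 for E1&E3-dKO (SD, n = 2 each). A short TAD inside a longer one can split it at an end or lie free within it. Those free of the host's ends made up 8.75% and 10.4% of short TADs in WT and 8.11% and 10.8% in E1-KO. They made up 28.7% and 14.7% for E2-KO, 10.4% and 19.7% for E3-KO, and 13.1% and 19.3% for E1&E3-dKO. The median host was 180 and 300 kb long in WT and 578 kb long for E2-KO replicate 1. An end of a short TAD fell within 10 kb of an end of a longer WT TAD more often than in the windows in 10 of 10 libraries. That was 29.3% against 12.1% in WT replicate 1, 17.5% against 10.6% in WT replicate 2, and lowest, at 12.7%, in E2-KO replicate 1. Some of these were listed slightly longer in WT: 7.22% of the short TADs of WT replicate 1 matched a longer TAD of WT replicate 2, and 0.390% of those of E2-KO replicate 1 matched a longer WT TAD.

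**Figure D5:**
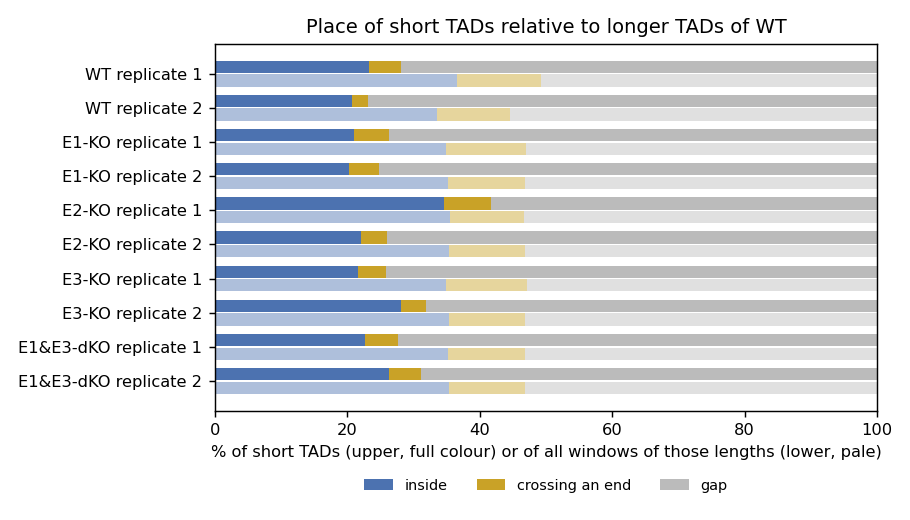
Percent of short TADs inside a longer WT TAD, crossing an end of one or in the gaps between them, for each library, with the values for all windows of the same lengths. The gaps hold 58.4% of the short TADs of E2-KO replicate 1 and 68.1% to 76.9% of those of the other libraries, against 50.7% and 55.4% of windows for the WT libraries.

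Between each knockout and WT, few short TADs were held by both libraries of 1 genotype and neither of the other. All 4 knockouts were set against the same WT libraries, and TADs in both knockout libraries and no WT library are called gained, those in both WT libraries and no knockout library lost. In E1-KO 22 of 1332 distinct short TADs (1.65%) were gained, against 3.05% of autosomal TADs of all lengths, and 19 (1.43%) were lost, against 3.72%. In E2-KO 71 of 5265 (1.35%) were gained, against 1.63%, and 21 (0.399%) were lost, against 2.96%. In E3-KO 32 of 2137 (1.5%) were gained, against 2.51%, and 21 (0.983%) were lost, against 2.38%. In E1&E3-dKO 44 of 2484 (1.77%) were gained, against 2.31%, and 22 (0.886%) were lost, against 3.19%. The percent of short TADs called was below the background, which includes the short TADs, in all 8 counts. TADs in 1 library only are among those counted and can never be called. Over all 10 libraries they made up 88.3% of distinct short TADs and 54.9% of longer ones. The lower percents are thus not a result on gain or loss apart from recurrence, and with 2 libraries against 2 no test was made. Without 1 library of a knockout or of WT these calls rest on a single list for that genotype, and gained TADs then numbered up to 561 in E1-KO, 3748 in E2-KO, 1276 in E3-KO and 1447 in E1&E3-dKO. Lost TADs numbered up to 376, 359, 366 and 366, each without WT replicate 1. The background over TADs of all lengths is not given here for lists with a library left out. No short TAD was in all 8 knockout libraries and no WT library, and 3 were in both WT libraries and no knockout library. The same counts over TADs of all lengths are not given here, so these are not read as a trait of short TADs. Only 1.24% of the distinct short TADs were in 5 or more libraries.

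Of the TADs gained in E2-KO, 39 of 71 lay in the gaps of both WT libraries, 13 lay inside a longer TAD of both, and 39 were in no other knockout library. Of the 22 gained in E1-KO, 10 lay in gaps of both WT libraries and 2 were in no other knockout library. For E3-KO these were 19 and 12 of 32, and for E1&E3-dKO 23 and 19 of 44. Some gained TADs were therefore listed in several knockouts. These counts are not given here for other short TADs, for windows or for gained TADs of all lengths. Whether the gained TADs differ from those in place or in sharing was not tested. On chromosome 4 at 46.61 to 46.69 Mb a TAD was in 7 knockout libraries and no WT library, with a mean score of 1.83. Its score was 1.91 and 1.88 in E1-KO, 2.12 in E2-KO replicate 1, 1.83 and 1.55 for E3-KO, and 1.76 and 1.74 for E1&E3-dKO. On chromosome 19 at 5.79 to 5.86 Mb a TAD was in 6 knockout libraries, with a mean score of 2.38. Its ends were joined by a listed interaction in 5 libraries, 1 of which was WT replicate 1, and WT replicate 2 lists a TAD of 110 kb over it. At a reciprocal overlap of 50% the chromosome 19 TAD was held by all 10 libraries and the chromosome 4 TAD by 8, and neither was called gained in E1-KO. With ends within 20 kb neither was called gained in E1-KO, at 7 and 8 libraries. The other 3 TADs in 6 knockout libraries and no WT library lay on chromosome 2 at 32.34 to 32.43 Mb, chromosome 4 at 63.07 to 63.15 Mb and chromosome 9 at 64.97 to 65.04 Mb.

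Ranked by the mean score in E1-KO itself, the chromosome 19 TAD at 5.79 Mb (2.05) and the chromosome 4 TAD at 46.61 Mb (1.90) were followed by TADs on chromosome 19 at 10.61 to 10.70 Mb (1.89), chromosome 7 at 66.11 to 66.19 Mb (1.85) and chromosome 4 at 123.27 to 123.35 Mb (1.83). The last lay inside WT TADs of 1900 and 1120 kb and was also in 2 libraries of other knockouts.

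In E2-KO the gained TAD with the highest score lay on chromosome 7 at 17.25 to 17.32 Mb. Its score was 9.19 in replicate 1 and 2.31 in replicate 2, it was also in E3-KO replicate 2 at 2.53, and it lay inside WT TADs of 1780 and 1580 kb. Its ends were joined by a listed interaction in 5 libraries, WT replicate 1 among them. On chromosome 14 at 52.18 to 52.25 Mb the scores were 7.001 and 3.22. The others lay on chromosome 1 at 89.98 to 90.06 Mb (mean 4.97), chromosome 17 at 33.29 to 33.35 Mb (4.23) and chromosome 2 at 103.90 to 103.97 Mb (4.14), each also in 2 libraries of other knockouts. The chromosome 1 TAD is the fourth highest score above, here counted by its representative of 80 kb, which 4 libraries matched, while the 90 kb TAD of E2-KO replicate 1 itself was matched in 3. At a reciprocal overlap of 50% the chromosome 2 TAD was no longer called gained. The median score of E2-KO replicate 1 exceeded that of the other libraries (above), so these means are not comparable with those of other genotypes.

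The highest mean score among TADs gained in E3-KO, 2.05, was on chromosome 17 at 22.48 to 22.56 Mb, inside a TAD of 400 kb in both WT libraries. It was followed by TADs on chromosome 11 at 94.71 to 94.80 Mb (1.87), chromosome 14 at 43.74 to 43.81 Mb (1.87), chromosome 7 at 31.59 to 31.66 Mb (1.85) and the chromosome 2 TAD at 32.34 Mb (1.83). In E1&E3-dKO the TAD on chromosome 17 at 35.61 to 35.69 Mb had scores of 2.55 and 2.33 and matched none in other libraries. The next were on chromosome 4 at 135.65 to 135.72 Mb (2.00), chromosome 5 at 102.41 to 102.50 Mb (1.90), chromosome 15 at 101.06 to 101.12 Mb (1.88) and chromosome 1 at 176.28 to 176.37 Mb (1.84). The chromosome 15 TAD also matched none in other libraries, and the chromosome 5 TAD lay inside WT TADs of 440 and 430 kb. The chromosome 1 TAD was 90 kb in 1 of the 4 libraries that held it and up to 110 kb in the others. Calls of gain in E1&E3-dKO were sensitive to the rule: at a reciprocal overlap of 50% the chromosome 17 TAD was held by 8 libraries, that on chromosome 4 by 9 and that on chromosome 15 by 7, and these 3 were not called gained. WT replicate 1 lists a TAD of 120 kb over the chromosome 17 TAD, WT replicate 2 lists 1 of 110 kb over that on chromosome 4, and both WT libraries list 1 of 110 kb over that on chromosome 15. With ends within 20 kb the chromosome 4 call alone among the 5 was lost.

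Among the lost TADs, that on chromosome 1 at 175.74 to 175.80 Mb had the highest mean WT score, 2.00. It was in no library of E1-KO, E2-KO or E1&E3-dKO and was held by E3-KO replicate 2. On chromosome 7 at 58.25 to 58.32 Mb a TAD (mean 1.76) was lost in E1-KO, E2-KO and E3-KO and held by E1&E3-dKO replicate 1. The TAD on chromosome 11 at 97.49 to 97.57 Mb (1.84) was lost in E2-KO and held by all 6 libraries of the other knockouts. At a reciprocal overlap of 50% all 10 libraries held it, and it was not lost. On chromosome 3 at 77.53 to 77.59 Mb a TAD (1.70) was held by E2-KO replicate 1 and lost in the other knockouts. The TAD on chromosome 4 at 132.00 to 132.07 Mb (1.70) was held by E3-KO replicate 2 and lost in the other knockouts. E1-KO and E2-KO both lacked the TAD on chromosome 2 at 93.25 to 93.32 Mb (1.69). E2-KO and E1&E3-dKO both lacked that on chromosome 7 at 60.13 to 60.20 Mb (1.78). E3-KO and E1&E3-dKO both lacked those on chromosome 8 at 86.81 to 86.89 Mb (1.78) and chromosome 10 at 61.58 to 61.65 Mb (1.73). Others were lost in a single knockout: on chromosome 15 at 25.65 to 25.73 Mb (1.78) in E2-KO, chromosome 18 at 60.86 to 60.94 Mb (1.70) in E3-KO, and chromosome 9 at 65.06 to 65.14 Mb (1.87) in E1&E3-dKO. At a reciprocal overlap of 50% the loss also ended for the chromosome 1 TAD in E1&E3-dKO, for the chromosome 7 TADs at 58.25 and 60.13 Mb in E2-KO, for that on chromosome 4 in E1-KO, and for those on chromosomes 8 and 10 in E3-KO. With ends within 20 kb the same was so for all of these but the chromosome 4 TAD. Since the knockouts share the WT libraries, a TAD lost in several of them rests on the same pair of WT lists.

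The interaction lists gave a readout that length did not use. An interaction joined a TAD where its bins lay within 20 kb of both ends, and 149 of the 10470 short TADs were joined in their own library. Joined short TADs made up 5.32% and 0% in WT (14 of 263 and 0 of 498), 15.8% and 0.849% in E1-KO and 0.831% and 1.70% in E2-KO. For E3-KO these were 2.59% and 0.720%, and for E1&E3-dKO 0.372% and 1.38%. E1-KO replicate 1 was the highest and also listed the most interactions of 90 kb or less, 300, against 1 in WT replicate 2 and 13 to 194 in the others. So few short interactions bound what could be joined in WT replicate 2. Short TADs were joined more often than longer TADs in 5 of 10 libraries, and the mean difference was 0.855 points (exact two-sided sign-flip permutation p = 0.402, adjusted 0.574). Without E1-KO replicate 1 it was 0.0355 points.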

How the data were processed

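Exo-Hi-C adds to Hi-C an exonuclease treatment, after ligation, against linear DNA, per the labels' protocols. Each of the 10 libraries has 2 deposited files, a TAD list and an interaction list, on mm9. The submitters' processing notes name HiC-Pro 2.10.0 and HOMER, without a version or role; which tool made each list is not given in the sources used here. The deposited TAD lists hold a score per TAD. The deposited interaction lists hold, for pairs of 10 kb bins, a read count without scaling for depth, a p-value, its adjusted form (none above 0.01) and the bias factor of each bin, a ratio relative to an average bin. The list of WT replicate 2 gives 466 pairs as 932 lines, and each pair was used once; its recovered depth may be too high.

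TADs on autosomes of 90 kb or less were taken, with no filter on score. Groups came from the labelled genotype. TADs matched at a reciprocal overlap of 80%. Distinct TADs were formed from those in the most libraries first, and counted as short where that representative was 90 kb or less. For depth, the mean of a Poisson distribution was solved from each deposited p-value and read count, divided by both bias factors, and fitted with a curve against distance from 0.25 to 4 Mb, read at 1 Mb. That the lists rest on this formula was not tested. Tests were exact permutations over libraries, and correlations used 100000 permutations (smallest p 1e-05); 13 p-values were adjusted by Benjamini-Hochberg. The smallest p possible was 0.00106 over pairings of 10 libraries, 0.00952 over pairings of 8, 0.0222 for WT against knockouts and 0.00195 for sign flips. Intervals cover counting error only.

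The regions named were the 10 distinct short TADs in the most libraries (ties by mean score), the 5 gained and 5 lost per knockout with the highest mean score in the genotype that held them, and the 5 highest scores. The TADs in 6 or more knockout libraries were named after their values were seen. The members and these rules were chosen with earlier results of these data known. Other length limits, matching rules, a score minimum, equal list lengths, chromosome X and leaving out each library were tried. The overlap coefficient, the line on depth and distinct TADs without E2-KO replicate 1 were added after seeing the data. Python 3.11.15, numpy 2.4.6, scipy 1.17.1 and pandas 2.3.3 were used, and the functions were tested on simulated data.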

Additional observations from a re-analysis of the deposited data

How the results depend on the processing

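At a limit of 80 kb the difference of chromosomes 11 and 19 passed the threshold (-2.89 points, exact permutation p = 0.00586). With only TADs that scored 2 or more it reversed (7.26 points), and the Jaccard difference reversed to -2.49 points. At that score gains were 0 in E1-KO, 13 in E2-KO, 0 in E3-KO and 4 in E1&E3-dKO, and losses were 0 in each knockout. Few short TADs outside E2-KO replicate 1 scored 2 or more (above). The Jaccard difference also reversed at a reciprocal overlap of 50% (-0.087), with ends within 20 kb (-0.041) and with chromosome X (-0.00573). At 50% overlap E2-KO gained 166 and lost 12, and with ends within 20 kb it gained 117. With equal list lengths E2-KO gained 26, E3-KO 16 and E1&E3-dKO 19. The number of TADs compared and the percent over TADs of all lengths are not given here under these settings. The changed counts are therefore not read against a background. After the line on log2 depth, chosen after seeing the data, the difference of WT and knockouts reversed to -0.0885 points, that of E2-KO was -0.832 and that of E1&E3-dKO 0.785. The cause of these changes was not tested. Of 40 calls of named gained or lost TADs, 39 were kept with equal list lengths, 32 with ends within 20 kb, 27 at 50% overlap and 6 at a score of 2 or more.

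Leaving out each library in turn, p ran from 0.225 to 0.639 for the share by genotype, from 0.072 to 0.717 for the score and from 0.0762 to 0.819 for placement (exact permutations, without E2-KO replicate 2 lowest in each). The difference of WT and knockouts ran from 9.47 (without E2-KO replicate 1) to 15.9 points, the Jaccard difference from -0.639 (without WT replicate 2) to 0.882, chromosomes 11 and 19 from -3 to -1.83, and joined ends from 0.0355 to 1.02. The correlation with the number of TADs ran from 0.961 to 0.986 and that with depth from -0.979 to -0.949. Against WT, the share ran from -3.63 to 8.84 in E1-KO, 15.0 to 39.2 in E2-KO, -1.28 to 18.8 in E3-KO and 5.19 to 23.4 in E1&E3-dKO. Gained TADs ran from 21 to 561, 69 to 3748, 31 to 1276 and 41 to 1447, and lost TADs from 18 to 376, 20 to 359, 18 to 366 and 19 to 366, in that order, since 1 library then stands for a genotype. No background over TADs of all lengths is given beside these counts.

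With the replicate number as a block, the exact permutation p was 0.375 for the share by genotype, 0.24 for WT against knockouts (13.2 points) and 0.35 for the score, and no call changed. Replicate numbers do not pair these libraries in the labels. Recovered depth differed between the lists: the 9 libraries other than E2-KO replicate 1 differ up to 3.79-fold, depth was not varied within a library, and its part was not tested.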

Other observations

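On chromosome X, which was left out of the members, short TADs made up a larger share than on the autosomes in 9 of 10 libraries, by 22.9 points on average over all 10. WT had 34.1% and 42.1%, E1-KO 31.4% and 51.3%, and E2-KO 51.4% and 53.6%. E3-KO had 34.9% and 56.6%, and E1&E3-dKO 49.5% and 55.6%. E2-KO replicate 1 was the exception, with 51.4% on the X and 51.8% on the autosomes. The counts behind these shares ran from 54 short TADs of 172 in E1-KO replicate 1 to 272 of 529 in E2-KO replicate 1.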
